A study of Mus musculus with 8 samples.

Results

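Hspa1a, Hspa1b, Hspa8, Hsph1, Dnajb1 and Dnaja1 encode 6 cytosolic chaperones and co-chaperones of the Hsp70 and Hsp40 system. They were taken by symbol from a table of UMI counts (counts of distinct RNA molecules) for 17143 genes in single cells of mouse hippocampus, so the set is 6 of 17143 genes and each of the 6 is in the table. The 6 were chosen with earlier results of these data known. Levels were read per cell as CP10K (UMIs of the gene per 10000 UMIs of the cell) and per mouse and cell type as CPM (UMIs of the gene per 1000000 UMIs summed over those cells). The series asks how exposure to lead (Pb) during development affects the hippocampus. All mice were a/a wildtype animals, 5 months old when killed, and none drank lead itself after weaning. The 4 lead-exposed mice (Pb) were offspring of dams whose drinking water held 32 ppm lead acetate from about 5 weeks of age, 2 weeks before mating, until the end of lactation, and the 4 control mice (Ctl) came from dams on the control water. Each group holds 2 females (F1, F2) and 2 males (M1, M2). Of each litter 1 male and 1 female were taken, but the labels do not tie a mouse to a litter, so mice of 1 group may be siblings. The hippocampus was dissociated to single cells with an enzyme kit on a heated mixer, and the cells were frozen and thawed before capture in droplets (10x Chromium), so the levels are those of dissociated and thawed cells.

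Hsp70 proteins bind exposed hydrophobic stretches of client proteins and release them in a cycle driven by ATP. J-domain proteins (the Hsp40 family) bring clients to Hsp70 and stimulate its ATPase, and nucleotide exchange factors let ADP leave so that the client is released. Heat shock factor 1 (Hsf1) binds heat shock elements, which are inverted repeats of GAA blocks, and drives the inducible genes of this system when misfolded protein accumulates. Hspa1a and Hspa1b are neighbouring genes for the inducible Hsp70, Hspa8 encodes the constitutive Hsc70, and Hsph1 encodes the Hsp110 protein Hsp105, an exchange factor for Hsp70. Dnajb1 encodes Hdj1, the J-domain protein most tied to heat shock, and Dnaja1 encodes Hdj2, a J-domain partner of Hsc70. The same genes are known to respond to warm enzymatic dissociation of tissue.

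Hspa1a lies on chr17:34969190-34972156 and Hspa1b on chr17:34956436-34959238 (GRCm38, both on the minus strand), 9951 bases apart. Each has 1 exon in the annotation. Their coding sequences were identical at 99.48% of 1926 aligned positions, their 5′ UTRs at 98.7% and their 3′ UTRs at 52.88%, so few reads from the coding part can tell the 2 genes apart, while the 3′ UTRs differ at many positions. The sources used here do not say whether reads came from the 3′ or the 5′ end, so the split between both genes is uncertain and their added counts are given where it matters. Hspa8 lies on chr9:40800984-40810087 (plus strand, up to 9 exons), Hsph1 on chr5:149614287-149636376 (minus, up to 19 exons), Dnajb1 on chr8:83608193-83612653 (plus, up to 3 exons) and Dnaja1 on chr4:40722150-40737149 (plus, up to 9 exons).

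The 250 bases before the start of Hspa1a and Hspa1b are printed because both genes had their highest levels in the same vascular cells, and because they show how alike the upstream DNA of the pair is. They come from RefSeq promoter windows (GRCm38.p6), are written 5′ to 3′ on the gene's strand, and end at the base before the transcription start, with the heat shock element half-site pair GAANNTTC in capitals. The windows are chr17:34972157-34972406 for Hspa1a and chr17:34959239-34959488 for Hspa1b.
Hspa1a: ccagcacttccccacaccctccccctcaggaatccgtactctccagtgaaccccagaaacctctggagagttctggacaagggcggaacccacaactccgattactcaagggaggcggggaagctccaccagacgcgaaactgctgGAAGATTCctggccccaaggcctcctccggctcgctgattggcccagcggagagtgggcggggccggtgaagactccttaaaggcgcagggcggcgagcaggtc
Hspa1b: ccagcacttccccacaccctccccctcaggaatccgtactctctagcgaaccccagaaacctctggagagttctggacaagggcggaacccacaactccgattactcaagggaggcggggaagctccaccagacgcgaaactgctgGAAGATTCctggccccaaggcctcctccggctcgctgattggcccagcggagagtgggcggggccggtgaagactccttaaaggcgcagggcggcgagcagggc
Both windows held 247 identical bases of 250. The 3 differences are C44T, T47C and T249G (the base of Hspa1a, its position from 1 at the 5′ end of the window, then the base of Hspa1b). The motif began 104 bases before the start in both genes.

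For Hsph1 and Dnaja1 the motif is shown with 8 bases on each side, because these are the other members with a match. Hspa8 was not searched. The capitals mark TTCNNGAA in Hsph1 (chr5:149636354-149636377, 33 bases before the start of the nearer of 2 RefSeq windows) and GAANNTTC in Dnaja1 (chr4:40722336-40722359, 124 bases before the start in 1 of its 3 windows).
Hsph1: tagaatctTTCTCGAAggctcgag
Dnaja1: agcctctaGAAAATTCtacgaggc
Among 32851 promoter windows of the same length, 6.69% held GAANNTTC, 7.17% TTCNNGAA and 12.8% either of them. Both motifs read the same on the 2 strands. Longer forms with 1 more block (GAANNTTC followed by NNGAA, or TTCNNGAA followed by NNTTC) were in 0.466% of windows and in none of those of the 4 genes shown. Neither window of Dnajb1 held a match to any of these motifs, and 1 of the 2 lies inside the gene span given above. The matches of Hsph1 and Dnaja1 also lie inside the gene spans given above, which begin upstream of the RefSeq starts used here. Both matches are thus upstream of these RefSeq starts, but not of the starts of those spans. A match is a stretch of letters, not evidence of binding.

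The table holds 5258 cells, of which 5156 were analysed, between 208 (Ctl F1) and 1157 (Pb F1) per mouse, with 1652290 to 8508064 UMIs per mouse and 5507 to 6464 median UMIs per cell. Of the 5199 distinct barcodes, 32 occurred in 2 or more mice (91 cells, 2 barcodes in all 8 mice). The fits were repeated without those cells, and the Microglia-like median from that fit is given with the results. Levels by cell type were not read without them. Cells were clustered without the 6 genes and without the chaperone, immediate early and mitochondrial lists, and clusters were named by markers. The classes with most cells were Endothelial-like (1306), Microglia-like (1291), Oligodendrocyte-like (1276), Pericyte-like (315) and Astrocyte-like (272), and 6 classes had at least 10 cells in at least 3 mice per group. The libraries did not fill the classes alike: 1 Oligodendrocyte-like cluster of 71 cells held 70 cells of Ctl M2.

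Hspa1a and Hspa1b had their highest mean levels, over Pb and Ctl mice together, in vascular cells. Hspa1a was highest in Endothelial-like cells, at 5694 ± 1158 CPM (SD, n = 8 mice), then in Pericyte-like cells at 5376 ± 1620, Smooth muscle-like cells at 3961 ± 1302 (n = 6) and Microglia-like cells at 3123 ± 1586. It was 1292 ± 373 CPM in Oligodendrocyte-like and 769 ± 305 CPM in Astrocyte-like cells (n = 6). The lowest Endothelial-like value, 4080 CPM, lay above the highest Oligodendrocyte-like value, 1870 CPM. Hspa1b had the same 3 vascular types on top, at 1999 ± 711 CPM in Pericyte-like, 1825 ± 427 CPM in Endothelial-like and 1696 ± 688 CPM in Smooth muscle-like cells, against 640 ± 295 CPM in Microglia-like and 129 ± 72.0 CPM in Astrocyte-like cells. Markers of other cells were present in these classes: the 18 Endothelial markers summed to 13650 to 18130 CPM in Pericyte-like cells, against 24200 to 27690 CPM in Endothelial-like cells and 8875 to 14560 CPM for the 8 Pericyte markers in the Pericyte-like cells themselves. The part of endothelial RNA in the Pericyte-like levels was not tested.

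Hspa8 and Dnaja1, the Hsc70 gene and its partner, were instead highest in Microglia-like cells. Hspa8 was at 3068 ± 1001 CPM there, 2281 ± 353 CPM in Cajal-Retzius neuron-like cells (n = 6), 2101 ± 493 CPM in Pericyte-like cells and 669 ± 195 CPM in Astrocyte-like cells. Dnaja1 was at 945 ± 314 CPM in Microglia-like, 661 ± 78.6 CPM in Endothelial-like, 271 ± 39.3 CPM in Oligodendrocyte-like and 226 ± 65.7 CPM in Astrocyte-like cells. Dnajb1 led in Smooth muscle-like (943 ± 288 CPM) and Microglia-like cells (927 ± 276 CPM), and Hsph1 differed least, from 228 ± 71.1 CPM in Oligodendrocyte precursor-like cells (n = 5) to 81.0 ± 21.7 CPM in Astrocyte-like cells. These means pool both groups, and not in equal numbers in each type. Oligodendrocyte precursor-like values came from Ctl F2 and the 4 Pb mice, and Smooth muscle-like values from Ctl M1, Ctl M2 and the 4 Pb mice. In control mice Dnajb1 was at 736 CPM in Microglia-like and 746 CPM in Pericyte-like cells. Within mice, Dnajb1 was higher in Smooth muscle-like than in Microglia-like cells in 3 of 6 mice, with a mean log2 difference of -0.07. Hsph1 was higher in Oligodendrocyte precursor-like than in Smooth muscle-like cells in 1 of 4 mice. All 6 genes had their lowest mean in Astrocyte-like cells, which also had the fewest UMIs per cell of the 6 classes (median 2858 in Pb and 3148 in Ctl mice). The part of depth in that level was not tested. Of 48 pairs of neighbours in the order of levels, 12 had a mean log2 difference of over 1 SD over mice and the rest did not. Among those 12, Hspa1b was higher in Smooth muscle-like than in Microglia-like cells in 6 of 6 mice, by 1.28 ± 0.33 log2 units, and Hspa1a in Pericyte-like than in Smooth muscle-like cells in 6 of 6 mice, by 0.45 ± 0.21. No pair passed the adjustment (smallest adjusted p 0.429, exact sign-flip test over mice, two-sided), and with 2 to 8 mice per pair the smallest p possible is 0.5 to 0.00781, so this does not show that neighbours are alike. UMI counts were not scaled by transcript length, so levels are compared for 1 gene at a time.

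**Figure D1:**
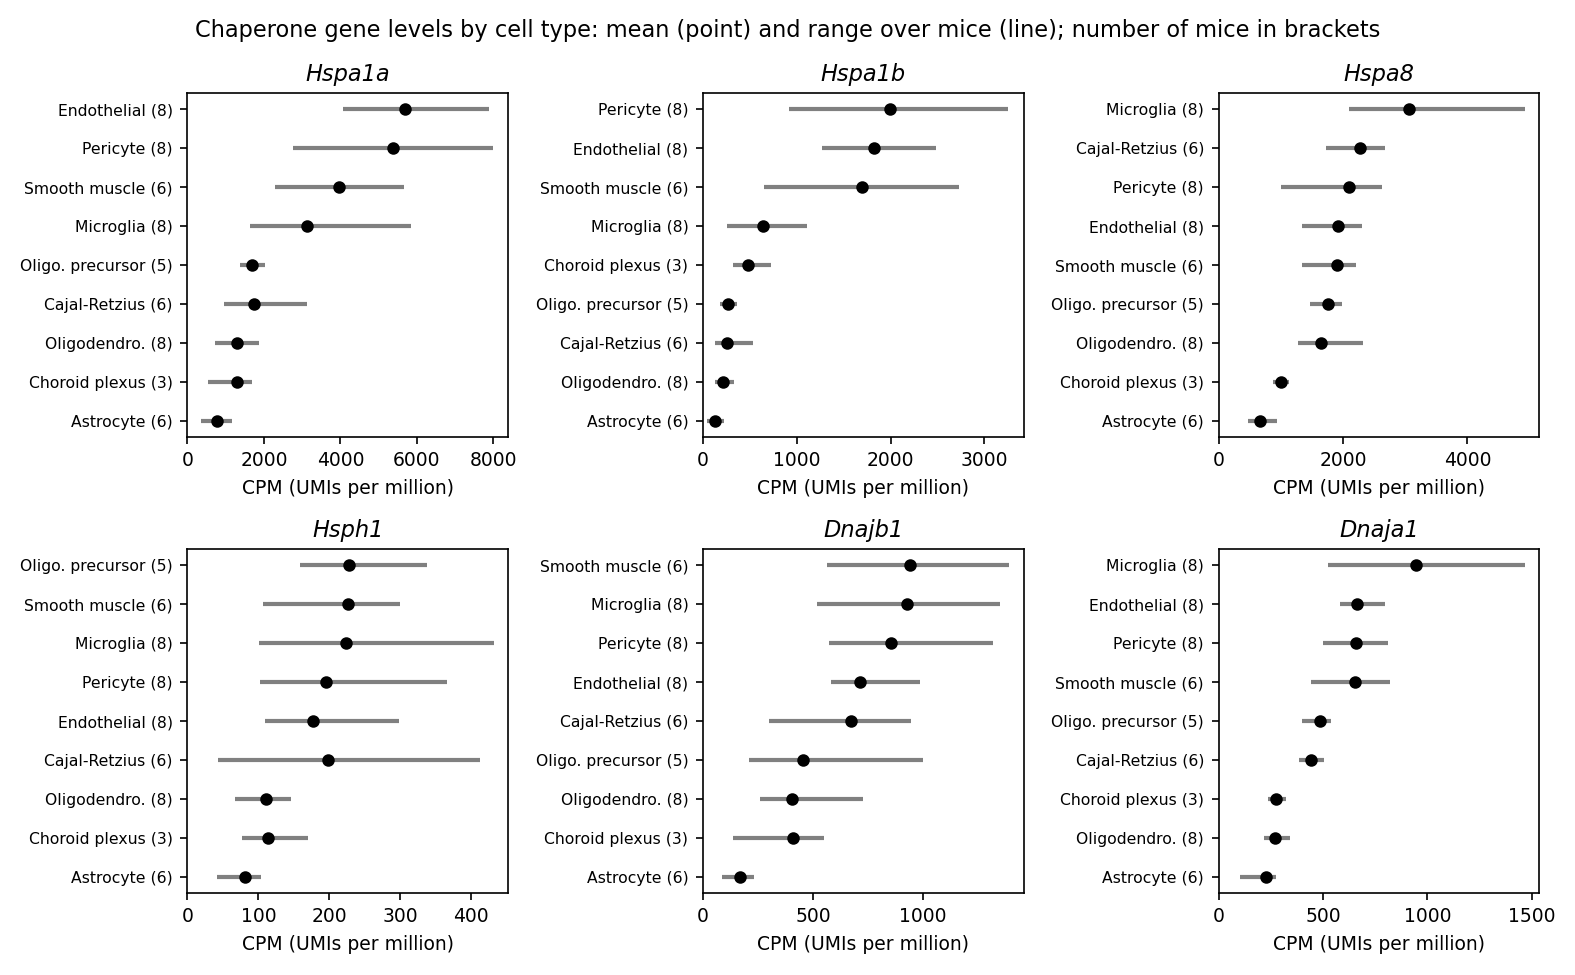
CPM (UMIs of the gene per 1000000 UMIs) of the 6 genes in 9 cell types, with the mean as a point and the range over mice (Pb and Ctl together) as a line, ordered by mean log2 CPM and with the number of mice in brackets. Hspa1a and Hspa1b are highest in the Endothelial-like, Pericyte-like and Smooth muscle-like cells, Hspa8 and Dnaja1 in Microglia-like cells, and all 6 are lowest in Astrocyte-like cells.

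The balance of the 2 inducible Hsp70 genes differed between cell types. Hspa1a made up 73.2 ± 2.68% of the UMIs of both genes in Pericyte-like cells, 75.6 ± 4.48% in Endothelial-like, 82.6 ± 4.38% in Microglia-like cells and 86.0 ± 3.66% in cells of the Oligodendrocyte-like class (SD, n = 8 mice). The share was lower in Endothelial-like than in Microglia-like cells in 8 of 8 mice, by 6.96 ± 3.17 points (adjusted p = 0.0234, exact sign-flip test over mice, two-sided, 15 pairs of types). It was higher in Oligodendrocyte-like than in Pericyte-like cells in 8 of 8 mice, by 12.9 ± 2.95 points, and than in Microglia-like cells in 8 of 8 mice, by 3.47 ± 2.33 points (adjusted p = 0.0234 for each, exact sign-flip test). For Endothelial-like against Pericyte-like cells the share was higher in 6 of 8 mice and the adjusted p was 0.117 (exact sign-flip test). The smallest p that 8 mice allow is 0.00781. This test was added after the data had been seen, and since the genes share most of their coding sequence, the share holds how reads of both were divided.

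**Figure D2:**
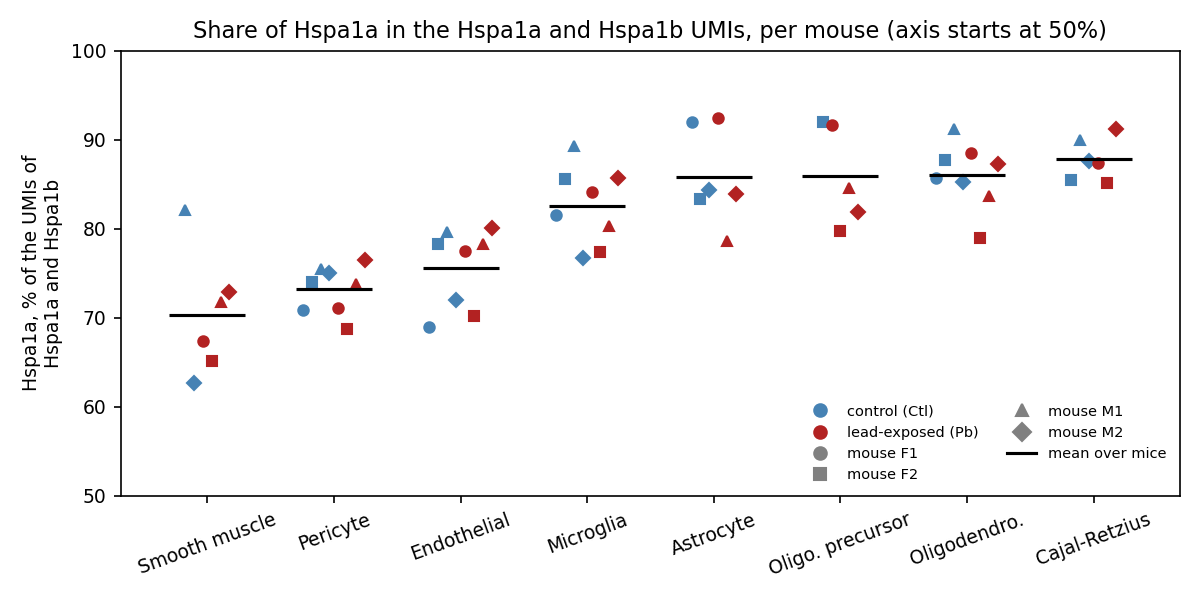
Hspa1a as a percent of the UMIs of Hspa1a and Hspa1b, 1 point per mouse (blue Ctl, red Pb, shape for the mouse number) with the mean over mice as a black line, in 8 cell types; the axis starts at 50%. Pericyte-like and Endothelial-like cells sit at means of 73.2% and 75.6%, below Microglia-like cells at 82.6% and Oligodendrocyte-like cells at 86.0%.

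In Microglia-like cells all 6 chaperone genes had a higher mean in lead-exposed than in control mice, with fitted log2 fold changes from 0.60 to 1.15 and a median of 0.78, where 48.5% of all genes tested were above 0. None passed the test over all genes in this class: edgeR called 0 of the 6 at an adjusted p under 0.05, and 0% of the 7718 genes tested. At an unadjusted p under 0.05, 6 of 6 were higher in Pb mice, where 1.93% of all genes tested were. The 6 were chosen with earlier results of these data known, so their excess over all genes is not a test. They also varied together across mice (mean correlations of 0.768 to 0.921 with a mean that each is part of) and are not 6 separate results. DESeq2 and limma-voom also called 0 of the 6, while edgeR without the low-count filter called 6, and 0.377% of the 15919 genes then tested. The median log2 fold change of all genes tested was -0.01. On simulated counts of this class, in which 200 genes were changed, the test recovered 53.8% of changes of 1 log2 unit and 97.2% of changes of 2 log2 units, with 9 false calls. The adjustment is stricter where fewer genes change, and recovery with only a few changed genes was not tested.

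Hspa1a, an inducible Hsp70 gene, was at 2010, 2328, 2154 and 2165.6 CPM in the Microglia-like cells of Ctl F1, F2, M1 and M2, and at 5858, 1643, 3748 and 5080 CPM in those of Pb F1, F2, M1 and M2. The controls lay within a narrow band, 3 Pb mice were above it and Pb F2 was below it. The fitted log2 fold change was 0.92 ± 0.26 (SE), with an adjusted p of 0.728 by edgeR. Hspa1b was at 454, 393, 258 and 656 CPM in the 4 control mice and at 1110, 482, 921 and 849 CPM in the 4 Pb mice, in the same order. Only Pb F2 fell within the control range, and the log2 fold change was 0.93 ± 0.25.

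Hspa8, the constitutive Hsc70 gene, was at 2104, 2137, 2882 and 2513 CPM in control mice and at 4932, 2462, 3560 and 3957 CPM in Pb mice. Again 3 Pb mice were above all controls and Pb F2 was within the control range, and the log2 fold change was 0.65 ± 0.18. Hsph1, the Hsp110 exchange factor, was at 189, 101, 116 and 161 CPM in control mice and at 432, 135, 315 and 336 CPM in Pb mice, with the largest log2 fold change of the 6, 1.15 ± 0.28, and an adjusted p of 0.533 by edgeR.

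Of the J-domain genes, Dnajb1 was at 980, 517, 554 and 892 CPM in control mice and at 1354, 1046, 1018 and 1051 CPM in Pb mice. It was the 1 member whose groups did not overlap in Microglia-like cells, where 1.18% of all genes tested had every Pb mouse above every control, and its log2 fold change was 0.60 ± 0.20. Dnaja1 was at 680, 524, 702 and 1073 CPM in control mice and at 1468, 834, 1095 and 1185 CPM in Pb mice, with Ctl M2 inside the Pb range and a log2 fold change of 0.65 ± 0.20. Pb F1 was the highest of the 8 mice for each of the 6 genes in this class. Without Pb F1 the median of the 6 log2 fold changes was 0.52, without Pb F2 it was 0.95 and 2 members were called (0.0607% of all genes tested), and with cells of shared barcodes left out it was 0.77.

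**Figure D3:**
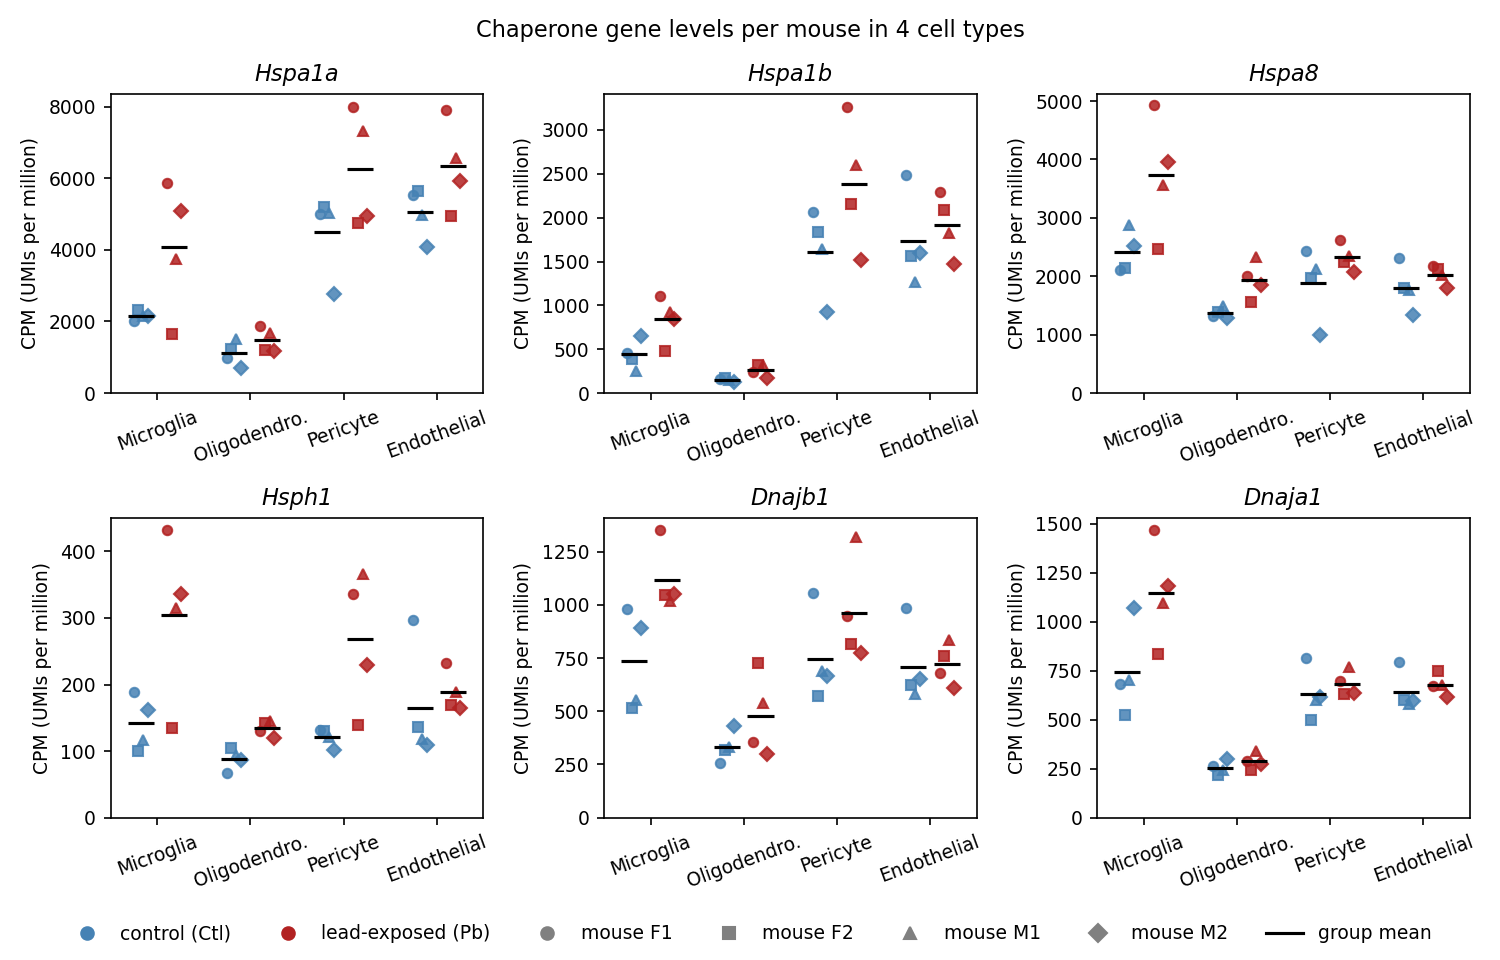
CPM of the 6 genes per mouse in 4 cell types (blue Ctl, red Pb, shape for the mouse number, black line for the group mean). In Microglia-like cells 3 of the 4 Pb mice lie above all controls for Hspa1a, Hspa1b, Hspa8 and Hsph1, with Pb F2 (red square) lower, while Endothelial-like groups overlap for every gene.

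The Microglia-like class held cluster 1 (668 cells, led by Bcl2a1d, Il1a and Cx3cr1), cluster 5 (481 cells, led by Cx3cr1, P2ry13 and P2ry12) and cluster 10 (142 cells), and the mice drew on them unequally: Ctl M2 had 34 cells in cluster 1 and 88 in cluster 5, and Pb F1 had 187 and 91. Fits within single clusters were therefore added after the data had been seen, for 8 clusters. Each adjusted p covers the genes tested in its own cluster and not the number of clusters fitted. In cluster 1, Hspa1b and Hsph1 were the only 2 genes called of 5701 tested (0.0351% called), and both rose. Hspa1b was at 309, 324, 240 and 188 CPM in Ctl F1, F2, M1 and M2 and at 1124, 427, 985 and 778 CPM in Pb F1, F2, M1 and M2, and every Pb mouse was above every control. Its log2 fold change was 1.64 ± 0.25 and its adjusted p 0.0213 by edgeR. Hsph1 was at 108, 81.6, 107 and 70.1 CPM in the control mice and at 435, 126, 342 and 366 CPM in the Pb mice, again without overlap, with a log2 fold change of 1.82 ± 0.30 and an adjusted p of 0.0319 by edgeR.

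The other 4 members did not pass in cluster 1. Dnajb1 was at 658 ± 137 CPM in control and 1130 ± 141 CPM in Pb mice (SD, n = 4 each) without overlap, with a log2 fold change of 0.78 and an adjusted p of 0.284 by edgeR. Hspa1a was at 1283 ± 523 CPM in control and 3302 ± 1691 CPM in Pb mice, with Pb F2 at 1070 CPM inside the control range, a log2 fold change of 1.35 and an adjusted p of 0.378 by edgeR. Hspa8 (0.79) and Dnaja1 (0.68) had smaller log2 fold changes. The median of the 6 was 1.07 and 6 of 6 were above 0 (49.2% of all genes tested), 6 of 6 had an unadjusted p under 0.05 (2.02% of all genes tested did, higher in Pb mice), and 3 of 6 did not overlap (1.51% of all genes tested).

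The 2 calls in cluster 1 rest on single mice and on the fit. Leaving out 1 mouse at a time gave 0 to 3 calls among the members (3 without Pb F2, where 0.164% of all genes tested were called, 1 without Ctl F2, where 0.0348% were, and 0 without any other mouse), limma-voom gave 0, DESeq2 gave 3 (0.105% of all genes tested) and edgeR without the low-count filter 6 (0.267%), while all 6 log2 fold changes stayed above 0 with an unadjusted p under 0.05 in each of the 8 fits with 1 mouse left out. With Hspa1a and Hspa1b added into 1 gene, Hsph1 had an adjusted p of 0.0626 by edgeR and no member was called. At the lower clustering resolution the matching cluster gave 0 calls, and no cluster matched it at the higher resolution or with shared barcodes removed. In cluster 5 the 6 log2 fold changes were from 0.45 to 0.79 (49.1% of all genes tested were above 0), with 0 members called and 0% of 3859 genes called, and 4 of 6 at an unadjusted p under 0.05 (1.63% of all genes tested) and 1 of 6 without overlap (1.3%). In each of the other 6 clusters tested edgeR called 0 members, where 0.0529% of all genes tested were called in Oligodendrocyte-like cluster 3, 0.087% in Oligodendrocyte-like cluster 4 and 0% in the other 4. Without the low-count filter 1 member was called in each of Microglia-like cluster 5 (0.128% of all genes tested), Astrocyte-like cluster 6 (0.0292%), Endothelial-like cluster 2 (0.194%), Oligodendrocyte-like cluster 3 (0.0852%) and Pericyte-like cluster 7 (0.0669%). A difference of the exposure effect between clusters 1 and 5 was not tested.

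**Figure D4:**
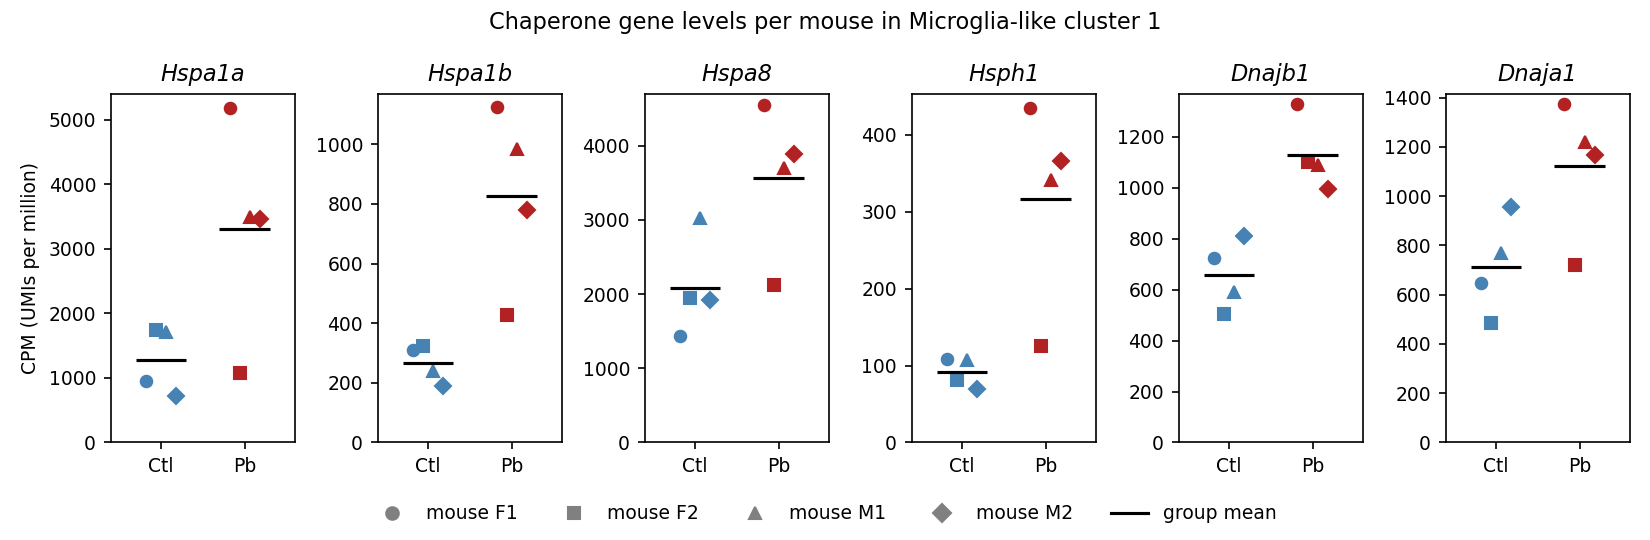
CPM of the 6 genes per mouse in Microglia-like cluster 1 (blue Ctl, red Pb, shape for the mouse number, black line for the group mean), each panel with its own axis from 0. The groups do not overlap for Hspa1b, Hsph1 and Dnajb1; Pb F2 (square) is the lowest Pb mouse for Hspa1a, Hspa1b, Hspa8, Hsph1 and Dnaja1.

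Per cell, the spread in Microglia-like cells showed higher values in the middle of the distribution. The median cell had 4.40 CP10K of Hspa1b in Pb mice and 1.27 CP10K in control mice (means over mice), and the groups did not overlap, which gave the smallest p that 4 against 4 mice allow, 0.0286 (exact permutation test over mice, two-sided), and an adjusted p of 0.267 over 42 tests. A UMI of Hspa1b was found in 75.2% of cells in Pb mice (67.7 to 83.8% over mice) and 56.6% in control mice (47.7 to 60.3%), with an adjusted p of 0.3 (exact permutation test). After thinning each cell to 1000 UMIs the shares were 39.3% and 28.6%. Astrocyte-like cells, where the gene was lowest, gave 13.4% and 5.09% at that depth. The lower quartile of Hspa8 was 19.8 CP10K in Pb and 12.3 CP10K in control mice, without overlap. The tenth of cells with most Hsph1 held 50.7 ± 4.33% of its UMIs in Pb and 61.4 ± 4.70% in control mice (n = 4 each, exact permutation p = 0.0286, adjusted p = 0.686). Hsph1 had the lower mean level in the controls, and the few UMIs of a sparse gene fall in fewer cells by sampling alone. These shares therefore do not show a difference in spread between cells, and the part of the level in them was not tested.

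In Oligodendrocyte-like cells the means of all 6 genes were also higher in Pb mice, with log2 fold changes from 0.17 to 0.80 and a median of 0.48 (47.8% of all genes tested were above 0). edgeR, DESeq2 and limma-voom called 0 of the 6, with 0% of 7614 genes called by edgeR, which without the low-count filter called 3 (0.155% of all genes tested). At an unadjusted p under 0.05, 3 of 6 were higher (1.72% of all genes tested), and 2 of 6 did not overlap (1.69%). Hspa8 was at 1317, 1380, 1492 and 1278 CPM in Ctl F1, F2, M1 and M2 and at 2000, 1561, 2325 and 1856 CPM in Pb F1, F2, M1 and M2. All 4 Pb mice were above all controls, and the log2 fold change was 0.48 ± 0.11 (unadjusted p = 0.000707 by edgeR). Hsph1 was at 67.2, 104, 94.1 and 86.1 CPM in control and at 130, 142, 145 and 120 CPM in Pb mice, also without overlap, with a log2 fold change of 0.56 ± 0.14.

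Hspa1b had the largest log2 fold change in Oligodendrocyte-like cells, 0.80 ± 0.19. It was at 166, 172, 145 and 122 CPM in control and at 242, 318, 326 and 171 CPM in Pb mice, with Pb M2 at the level of the 2 control females. Hspa1a (0.40), Dnajb1 (0.48) and Dnaja1 (0.17) had groups that overlapped. Of the 92 Oligodendrocyte-like cells of Ctl M2, 70 were in cluster 15, which held 0 cells of the other controls. Without Ctl M2 the log2 fold change was 0.43 for Hspa8, 0.73 for Hspa1b, 0.65 for Dnajb1 and 0.23 for Hspa1a. Within cluster 3, where Ctl M2 had 7 cells and was left out, Hspa8 overlapped (lowest Pb mouse 1587 CPM, highest control 1590 CPM) and Dnajb1 was at 0.98 ± 0.23, and within cluster 4 Hsph1 overlapped and Dnajb1 was at 0.48. Per cell, Hspa8 was at 19.2 ± 3.07 CP10K in Pb and 13.7 ± 0.715 CP10K in control mice (n = 4 each), without overlap and with an adjusted p of 0.28 (exact permutation test). At 1000 UMIs per cell, 83.3% of cells in Pb and 66.1% in control mice had a UMI of Hspa8 (adjusted p = 0.24, exact permutation test).

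Pericyte-like cells had Hsph1 as the gene with the smallest p of all 5551 tested. It was at 131, 130, 121 and 102 CPM in Ctl F1, F2, M1 and M2 and at 337, 139, 366 and 230 CPM in Pb F1, F2, M1 and M2. Every Pb mouse was above every control, with Pb F2 close to them, and the log2 fold change was 1.14 ± 0.24 with an adjusted p of 0.543 by edgeR. All 6 members had a log2 fold change above 0 (median 0.41, from 0.11 for Dnaja1, with 48.5% of all genes tested above 0), 0 were called by edgeR, DESeq2 or limma-voom (0% of all genes tested by edgeR; without the low-count filter 2, and 0.0661% of all genes), 3 of 6 had an unadjusted p under 0.05 and were higher (2.18% of all genes tested), and 1 of 6 did not overlap (1.68%).

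Endothelial-like cells, which had the most Hspa1a, showed the smallest differences among the 4 types that all 8 mice fill. The 6 log2 fold changes were from 0.02 for Dnajb1 to 0.31 ± 0.13 for Hspa1a, with a median of 0.15, all above 0 as were 48.4% of all genes tested. edgeR, DESeq2 and limma-voom called 0 of the 6 (0% of 8767 genes by edgeR), 1 of 6 had an unadjusted p under 0.05 and was higher (1.94% of all genes tested), and 0 of 6 did not overlap (1.51%). Hspa1a was at 5534, 5652, 4961 and 4080 CPM in control and at 7892, 4936, 6562 and 5934 CPM in Pb mice. Ctl F1, the library with fewest cells, was the highest of the 8 mice for Hspa1b, Hspa8, Hsph1, Dnajb1 and Dnaja1 in this class, and without it the median of the 6 was 0.30.

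Astrocyte-like and Cajal-Retzius neuron-like cells allowed 3 mice per group. In Astrocyte-like cells Hspa1a was at 474, 797 and 363 CPM in Ctl F1, F2 and M2 and at 1173, 820 and 986 CPM in Pb F1, M1 and M2, without overlap. Its log2 fold change was 0.99 ± 0.23, with an adjusted p of 0.427 by edgeR. In the same cells 7 of 7 Endothelial markers tested were above 0 (median 0.34; the 18 summed to 1688 to 2553 CPM in Pb and 900.5 to 2589 CPM in control mice), as were 7 of 8 Oligodendrocyte markers (median 0.60, 4 with an unadjusted p under 0.05; 4990 to 6634 CPM in Pb and 4382 to 8717 CPM in control mice), and their part in the difference was not tested. Hspa8 (0.70) did not overlap either, while Hsph1 was at 0.01; all 6 were above 0, as were 49.2% of all genes tested. There, 0 of 6 were called (0% of 2285 genes by edgeR, 0 members by DESeq2 and limma-voom, and 1 by edgeR without the low-count filter, with 0.0358% of all genes), 3 of 6 were higher at an unadjusted p under 0.05 (3.06% of all genes tested), and 3 of 6 did not overlap (7.18%). In Cajal-Retzius neuron-like cells 2 of 6 were above 0, Hsph1 at 1.33 ± 0.48 and Hspa8 at 0.10, and the median was -0.10 (50.1% of all genes tested were above 0). The mice were Ctl F2, M1 and M2 and Pb F1, F2 and M2, so the sexes were not balanced, and the fit holds sex. The plain means of Hspa1a (1772 CPM in Pb, 1726 CPM in control mice) and Dnaja1 (452 and 429 CPM) were higher in Pb mice. Those of Hspa1b and Dnajb1 were lower. Of those 6 genes 0 were called by edgeR, DESeq2 or limma-voom (0% of 1648 genes by edgeR), 1 was higher at an unadjusted p under 0.05 (0.971% of all genes tested) and 1 did not overlap (4.07%).

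**Figure D5:**
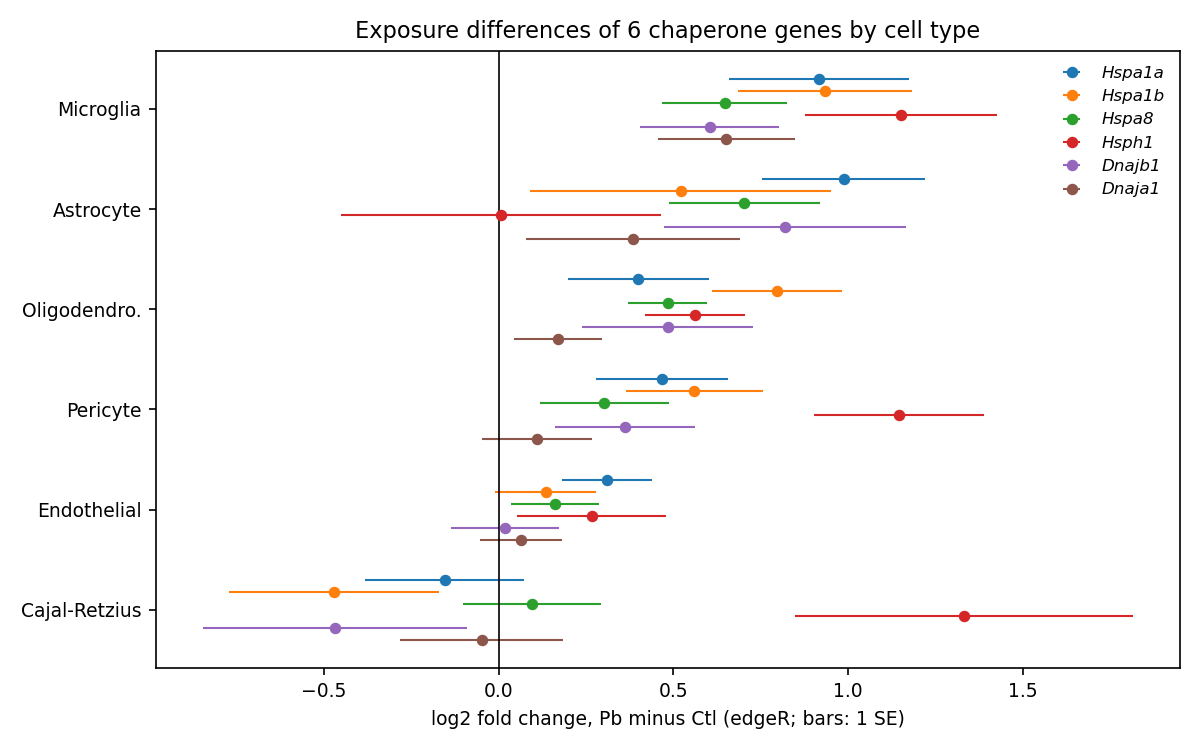
Fitted log2 fold changes, Pb minus Ctl, of the 6 genes in 6 cell types, with bars of 1 SE and a vertical line at 0. All 6 are above 0 in Microglia-like, Astrocyte-like, Oligodendrocyte-like, Pericyte-like and Endothelial-like cells, with medians of 0.78, 0.61, 0.48, 0.41 and 0.15, and 2 of 6 are above 0 in Cajal-Retzius neuron-like cells.

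The size of the exposure difference was not shown to differ between cell types. In 36 tests of the difference between 2 types within the same mice, the smallest p was 0.0571 and the smallest adjusted p 0.514 (exact permutation test over mice, two-sided). The test was added after the data had been seen. Summed over all cells, where the mix of types moves the value, 6 of 6 members were above 0 with a median of 0.32 (48% of all genes tested were above 0), 0 were called by edgeR, DESeq2 or limma-voom (0% of 12662 genes by edgeR), 3 were higher at an unadjusted p under 0.05 (3.12% of all genes tested), and Hspa8 and Dnaja1 did not overlap (2.29%). No product of exposure and sex passed for any member in 30 tests by edgeR, and 0 of the 30 had an unadjusted p under 0.05. Between the sexes, Hspa1b was lower in males in Endothelial-like cells by a log2 difference of -0.48 ± 0.14, with an adjusted p of 0.536 by edgeR.

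Within a mouse, Hspa1a and Hspa1b varied together from cell to cell in some types, and this was not seen in Astrocyte-like cells. The Spearman correlation between cells of Hspa1a and Hspa1b was read as the median over mice with at least 50 cells. It was 0.596 in Endothelial-like (8 mice), 0.534 in Microglia-like (8 mice) and 0.334 in Oligodendrocyte-like cells (7 mice). Every other pair of members had a lower median in these types. The lowest were 0.164 for Hspa1a and Hsph1, 0.237 for Hspa1a and Dnaja1 and 0.033 for Hspa1b and Dnaja1, in the same order of types. Hspa1a and Hspa1b share most of their coding sequence, so their value also holds how reads of both were divided. In Astrocyte-like cells the value of this pair was 0.022, over Pb F1, M1 and M2 only (-0.142 to 0.194). These are descriptions over cells of shared libraries, and shallow cells lower them. Astrocyte-like cells had the fewest UMIs per cell of the 6 classes and the lowest Hspa1b (129 CPM), so their value does not show that the genes vary apart.

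Other genes of the pathway were read from 9 lists, which were also chosen with earlier results of these data known. Of the other heat-inducible chaperones 15 of 15 tested were above 0 in Microglia-like cells (median 0.46, against 48.5% of all genes tested), and 10 were higher at an unadjusted p under 0.05 (1.93% of all genes). Above 0 were also 15 of 16 in Oligodendrocyte-like cells (median 0.33, against 47.8% of all genes), 15 of 16 in Pericyte-like cells (0.44, against 48.5%) and 16 of 17 in Endothelial-like cells (0.22, against 48.4%), and none was called by edgeR. Hsp90aa1, the inducible Hsp90, was at 1655 ± 600 CPM in control and 2807 ± 818 CPM in Pb mice in Microglia-like cells (log2 fold change 0.78 ± 0.20, adjusted p = 0.706 by edgeR), and its log2 fold change was 1.15 ± 0.22 in cluster 1 (adjusted p = 0.115 by edgeR). Hspb1, the small heat shock protein Hsp27, was 0.69 log2 units higher in Microglia-like cells of Pb mice and 0.42 in Pericyte-like cells. Ubb, a polyubiquitin gene, was at 0.11 in the former. Bag3, a co-chaperone that links Hsp70 to selective autophagy, was at 0.74 ± 0.30 in Microglia-like cells, and Stip1 (Hop), which joins Hsp70 to Hsp90, at 0.46 ± 0.18.

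The other lists hold partners of Hsp70, some of which (Bag3, Dnajb4) are also in the heat-inducible list, and no difference between lists was tested. Of the other Hsp70 and Hsp110 genes 6 of 8 were above 0 in Microglia-like cells with a median of 0.08, and Hspa5, the Hsp70 of the endoplasmic reticulum, was at 0.09 and Hspa9, that of mitochondria, at 0.27. Of the other J-domain genes 10 of 25 were above 0 (median -0.03), with Dnajb6 at 0.15 and Dnajb2 at 0.32. Dnaja4, a J-domain gene named here after its values were seen, was at 23.2 ± 3.05 CPM in control and 54.6 ± 24.7 CPM in Pb mice, a log2 fold change of 1.30 ± 0.30 that is larger than that of any of the 6 members (adjusted p = 0.533 by edgeR), and at 1.41 in cluster 1. Of the nucleotide exchange factors 4 of 7 were above 0 (median 0.01), with Bag1 at -0.04 and Bag6 at 0.01, and of the Hsp70 adaptors 6 of 8 were (median 0.15), with St13 at 0.24 and Stub1 at 0.01. Of the heat shock factors and their regulators 1 of 2 tested was above 0, with Hsf1 at -0.07 and Hsbp1 at 0.08. Over all genes tested in this class 48.5% were above 0, and none of these list members was called by edgeR.

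Genes that mark handling and RNA quality also differed in mean between the groups. In Microglia-like cells 4 of 20 dissociation and immediate early genes were above 0 (median -0.16), with Fos at -0.43 and Jun at -0.03, and the summed list was at 25283 to 34594 CPM in Pb and 31061 to 35066 CPM in control mice. In Oligodendrocyte-like cells 1 of 20 was above 0 (median -0.28), and in Endothelial-like cells 0 of 20 (median -0.21). Both cold-inducible genes had a lower mean in Pb mice in these 3 types. Rbm3 and Cirbp were at -0.46 and -0.46 in Microglia-like cells, with unadjusted p values of 0.00457 and 0.0337 by edgeR. They were at -0.96 and -0.54 in Oligodendrocyte-like cells, with unadjusted p values of 4.7e-05 and 0.00448 by edgeR. There Rbm3 had the smallest adjusted p of all genes tested, 0.358 by edgeR. Pericyte-like cells had them at -0.43 and -0.63 (unadjusted p = 0.017 and 0.00762 by edgeR), and Astrocyte-like cells at 0.04 and -0.28. Of the 13 genes of the mitochondrial genome 1 was above 0 in Microglia-like cells (median -0.40). There mt-Atp6 was at -0.40 and mt-Co3 at -0.34 (unadjusted p = 0.0245 and 0.0525 by edgeR). The median mitochondrial percent per cell was 1.85 to 2.72 in Pb and 2.59 to 3.82 in control mice in this class. Endothelial-like cells had mt-Atp6 at -0.33 and mt-Co3 at -0.36 (unadjusted p = 0.0099 and 0.0114 by edgeR), and Astrocyte-like cells at 0.20 and 0.06. Of the 10 Oligodendrocyte markers, 7 of 10 tested were above 0 in Endothelial-like cells and 7 of 9 in Pericyte-like cells. There 4 and 3 of the markers had an unadjusted p under 0.05 by edgeR in either direction (1.94% and 2.18% of all genes tested had it and were higher). In Microglia-like cells 8 of the 10 were above 0 (median 0.45), and 6 had such a p (1.93% of all genes tested had it and were higher). None of the 10 was at 0 UMIs there, and their sum was at 4498 to 6652 CPM in Pb and 4065 to 9594 CPM in control mice. The 7 Choroid plexus markers (2 tested, 0 above 0, median -1.63) summed to 51.4 to 4936 CPM in Pb and 45.7 to 18100 CPM in control mice in these cells, and Ctl M2 held the highest sum in each of the 6 classes. The 5 Erythroid markers (2 tested, 0 above 0, median -0.83) summed to 31.8 to 283.5 CPM in Pb and 163.8 to 402.8 CPM in control mice. Without Ctl M2 the median log2 fold change of the 6 members in Microglia-like cells was 0.87, with 6 of 6 above 0. None of these list genes was called by edgeR, and their part in the differences of the 6 members was not tested.

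The genes most like the members across mice, by the mean over 4 cell types of the Pearson correlation with the mean of the 6 (8 mice each, 4561 candidate genes), were Calr (0.628), Fbxo7 (0.622), Cct4 (0.602), Chchd2 (0.586), Abhd5 (0.576), P4ha1 (0.574), Tnfrsf12a (0.573) and Ndufb5 (0.568). Calr encodes calreticulin, a chaperone of the endoplasmic reticulum, and Cct4 a subunit of the cytosolic chaperonin. Of the members themselves Hsph1 had the highest such value, 0.921, in a mean that it is part of.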

How the data were processed

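Single cells of the hippocampus of 8 mice (4 Pb, 4 Ctl) were counted by the authors, and the deposited table holds raw UMI counts per gene and cell. Per the submitters' processing notes, Cell Ranger, Seurat and mm10 were used, with no version named; for kit end, strand and annotation the sources used here name nothing. No cell in the deposited table has under 999 genes or 1137 UMIs. Cells over 20% mitochondrial UMIs (53), Scrublet doublets (33 called, 0.628%, of which 30 were removed after the first filter) and 19 cells with over 100 hemoglobin UMIs (a step chosen after the data had been seen) were left out. The labels do not say whether doublets had been removed earlier.

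Cells were clustered in scanpy 1.11.5 (2000 variable genes, 30 principal components, Leiden resolution 1). UMIs were summed per mouse and class with at least 10 cells and tested with edgeR 4.0.16 (TMM, filterByExpr, quasi-likelihood test, sex as covariate, Benjamini-Hochberg over all genes tested). DESeq2 1.42.0, limma 3.58.1 (voom), other filters, resolutions and left-out mice were alternatives. Mouse-level values were compared by exact permutation tests, p-values over mice measure the spread between these mice only, and the test was checked on simulated data. Named genes were the 6 members, the 2 members of each list with the highest CPM, Hsf1, Hsp90aa1, Bag3 and Stip1, and the 8 genes most like the members. Members and lists were chosen with earlier results of these data known.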

Additional observations from a re-analysis of the deposited data

Results flagged for a closer look

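Of 132 groups of 4 mice (a gene, a cell type and an exposure group), 11 had 1 mouse far from the other 3 by Dixon's test; chance flags about 1 group in 20. Ctl M2 was low for Hspa1a over all cells, at 1639.5 CPM against 3258.6 to 3318.6 CPM in the other controls, and in Pericyte-like cells, at 2756.9 CPM against 5002.1 to 5209.6 CPM. Ctl F1 was high for Hsph1 over all cells (174.3 CPM against 115.66 to 121.29 CPM), in Endothelial-like cells (297.65 CPM against 109.77 to 135.56 CPM) and in Endothelial-like cluster 0 (373.4 CPM against 114.53 to 144.28 CPM). In Endothelial-like cells it was also high for Dnajb1 (985.31 CPM against 580.86 to 649.48 CPM) and Dnaja1 (796.46 CPM against 579.66 to 600.12 CPM). Pb F1 was high for Dnaja1 over all cells (678.65 CPM against 622.36 to 627.79 CPM) and for Dnajb1 in Microglia-like cells (1353.6 CPM against 1018.0 to 1051.5 CPM). Pb M2 was low for Hspa1b over all cells (833.74 CPM against 1098.8 to 1127.3 CPM), and Pb M1 was high for Dnajb1 in Pericyte-like cluster 7 (1225.1 CPM against 710.2 to 782.78 CPM).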

How the results depend on the processing

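Of the fold changes of the members in each cell type and cluster under each alternative, 1831 kept their direction and their side of the threshold, 34 passed it newly, 20 no longer passed it and 42 reversed; the cause was not tested. Without the low-count filter edgeR called 6 members in Microglia-like cells, 3 in Oligodendrocyte-like, 2 in Pericyte-like and 1 in Astrocyte-like cells (0.377%, 0.155%, 0.0661% and 0.0358% of all genes tested there), and, by cluster, 6 in Microglia-like cluster 1 (0.267%) and 1 each in Microglia-like cluster 5, Astrocyte-like cluster 6, Endothelial-like cluster 2, Oligodendrocyte-like cluster 3 and Pericyte-like cluster 7 (0.0292% to 0.194%). With the replicate block 1 member was called in each of Astrocyte-like cells (0.35% of all genes tested), Cajal-Retzius neuron-like cells (0.182%) and Oligodendrocyte-like cluster 3 (0.0529%), and 0 calls changed elsewhere by over 1.5 times. Same-numbered mice did not deviate together (correlations from -0.411 to 0.022, none best with its own number). The best partners reached only 0.026 to 0.39 with 4 mice per group, so these values cannot exclude that the numbers pair the mice. The labels do not say whether they do. In Microglia-like cluster 1 (2 called) limma-voom gave 0, the added Hspa1a and Hspa1b 0, the resolution of 0.5 0, clustering with the stress genes 1 and keeping hemoglobin-rich cells 1 (added after the data had been seen). With 1 mouse left out the calls ranged from 0 to 3 there, from 0 to 2 in Microglia-like cells, and from 0 to 1 in Astrocyte-like cells, Astrocyte-like cluster 6, Pericyte-like cells and Oligodendrocyte-like cluster 3.

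Reversed log2 fold changes were near 0 in most cases. In Astrocyte-like cells Hsph1 was at -0.14 by limma-voom and at -0.0057 with shared barcodes removed. In Cajal-Retzius neuron-like cells Dnaja1 was at 0.065 without the filter and at 0.070 without the sex covariate, which put Hspa1a at 0.063. In Endothelial-like cluster 0, Dnaja1 was at -0.0094 with doublets kept, -0.011 at a resolution of 0.5, -0.0046 with stress genes used to cluster and -0.028 with hemoglobin-rich cells kept, and Hspa1b was at 0.038 by limma-voom, 0.012 without the filter, 0.0097 with the replicate block and 0.013 at a resolution of 0.5. With 1 mouse left out the ranges that crossed 0 were, in Endothelial-like cells, -0.018 to 0.18 for Dnaja1 and -0.13 to 0.23 for Dnajb1. In Endothelial-like cluster 0 they were -0.043 to 0.083 for Dnaja1, -0.28 to 0.039 for Dnajb1, -0.15 to 0.18 for Hspa1b and -0.16 to 0.48 for Hsph1, and in cluster 2 -0.019 to 0.26 for Dnaja1 and -0.016 to 0.35 for Dnajb1. They were -0.0061 to 0.29 for Dnaja1 in Pericyte-like cells and -0.049 to 0.43 for Hspa1a in Oligodendrocyte-like cluster 4. In Cajal-Retzius neuron-like cells they were -1.52 to 0.58 for Dnajb1, -0.60 to 0.33 for Hspa1a and -0.0087 to 0.21 for Hspa8. In Astrocyte-like cells they were -0.33 to 1.57 for Hspa1b and -0.16 to 0.34 for Hsph1, and in Astrocyte-like cluster 6 -0.30 to 1.12 for Hspa1b.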
